A study of Mus musculus with 66 samples.

Results

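The 10 imprinted genes described here are Snhg14, Snrpn, Ube3a, Ndn, Meg3, Rian, Mirg, Peg3, Nnat and Impact, followed in medial prefrontal cortex of male mice. Every probe set annotated to 1 of these symbols was a member, which gave 50 of the 45037 probe sets on the array, for 10 of 18193 gene symbols. Of these, 44 carried 1 of the symbols alone, and 6 were annotated to Snurf and Snrpn together (both reading frames lie on a shared transcript); those 6 are written Snurf/Snrpn. The data were 66 arrays. C57BL/6J had 3 arrays after saline and 3 after ethanol, DBA/2J had 3 and 3, and 27 BXD strains, recombinant inbred lines bred from C57BL/6J and DBA/2J, had 1 saline and 1 ethanol array each. Ethanol was given intraperitoneally at 1.8 g/kg, and the tissue was taken 4 hours later from mice of 10 to 12 weeks. All groups, saline included, also went through 15 minutes of restraint and 10 minutes in a light-dark box. Tissue of 4 to 5 animals was pooled for an array, so p-values of the progenitor comparisons measure the spread between pools. In the BXD panel, with 1 array per strain and treatment, the spread also holds differences between strains in the response. A lower level in bulk tissue may reflect fewer cells or less RNA per cell, which cannot be told apart.

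Imprinted genes are expressed mainly or only from the copy inherited from one parent, and many of them sit in clusters under a shared control region. In the Snrpn-Ube3a cluster, Snhg14 is a long paternally expressed noncoding RNA that carries arrays of small nucleolar RNAs and, in neurons, runs antisense across Ube3a. Snrpn encodes a spliceosomal protein of neurons, Ube3a a ubiquitin ligase that neurons express from the maternal copy, and Ndn the growth-restraining protein necdin. Meg3, Rian and Mirg are maternally expressed noncoding RNAs of another cluster, and Rian and Mirg host small nucleolar RNAs and microRNAs. Peg3 encodes a zinc finger protein, Nnat the membrane proteolipid neuronatin, and Impact a regulator of the translation-control kinase Gcn2. The arrays read total transcript levels and cannot separate the parental copies, so imprinting itself was not measured.

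RefSeq promoter windows of GRCm38.p6, from 250 bases before to 50 bases after each annotated start, were matched by symbol for 9 of the 10 genes, all except Impact. They are shown for starts in the 3 places where the levels below differ between strains, with every CpG in capitals because CpG methylation is the mark through which imprinting control regions act.
Snhg14 and Snrpn, shared upstream start, chr7:60450128-60450427 (minus strand): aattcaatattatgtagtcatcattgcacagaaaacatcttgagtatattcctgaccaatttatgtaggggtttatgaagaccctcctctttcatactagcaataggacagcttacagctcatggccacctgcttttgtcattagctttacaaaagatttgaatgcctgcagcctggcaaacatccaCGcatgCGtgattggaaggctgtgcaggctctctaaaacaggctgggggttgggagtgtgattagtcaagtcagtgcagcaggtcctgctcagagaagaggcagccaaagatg
Snrpn and Snurf, downstream start, chr7:60005150-60005449 (minus strand): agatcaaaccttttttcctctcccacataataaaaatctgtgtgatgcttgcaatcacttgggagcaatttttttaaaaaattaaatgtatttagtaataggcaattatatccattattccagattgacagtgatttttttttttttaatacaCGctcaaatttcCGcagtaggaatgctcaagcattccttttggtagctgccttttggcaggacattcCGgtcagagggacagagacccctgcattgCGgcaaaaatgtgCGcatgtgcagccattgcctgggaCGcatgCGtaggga
Meg3, the more upstream of the listed starts, chr12:109540746-109541045 (+ strand): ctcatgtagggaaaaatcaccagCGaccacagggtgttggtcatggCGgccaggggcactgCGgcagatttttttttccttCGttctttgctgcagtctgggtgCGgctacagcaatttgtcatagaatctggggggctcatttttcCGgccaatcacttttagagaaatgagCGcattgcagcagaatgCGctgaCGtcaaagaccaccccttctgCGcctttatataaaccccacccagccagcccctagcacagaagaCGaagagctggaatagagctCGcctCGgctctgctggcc
Rian, chr12:109603695-109603994 (+ strand): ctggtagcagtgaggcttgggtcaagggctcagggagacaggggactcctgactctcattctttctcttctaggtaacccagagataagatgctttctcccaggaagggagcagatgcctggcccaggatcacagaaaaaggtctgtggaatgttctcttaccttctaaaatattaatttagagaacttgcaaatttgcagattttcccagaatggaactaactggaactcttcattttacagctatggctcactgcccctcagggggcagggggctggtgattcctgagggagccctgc
Nnat, chr2:157559828-157560127 (+ strand): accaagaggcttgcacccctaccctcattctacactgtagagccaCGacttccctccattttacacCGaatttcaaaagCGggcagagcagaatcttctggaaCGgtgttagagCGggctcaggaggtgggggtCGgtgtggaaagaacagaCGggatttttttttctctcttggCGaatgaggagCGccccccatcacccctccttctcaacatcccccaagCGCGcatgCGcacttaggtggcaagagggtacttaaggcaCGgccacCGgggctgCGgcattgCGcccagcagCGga
The upstream window shared by Snhg14 and Snrpn held 2 CpGs, a number that 85.9% of 32851 RefSeq windows of 300 bases reached or passed. The downstream Snrpn and Snurf window held 7, reached or passed by 52.1%. The Meg3 window held 13 CpGs (37.9% of windows had as many or more) and that of Nnat 17 (31.4%), whereas the Rian window held 0. Snrpn had 3 starts upstream of the last one, and their windows shared an unbroken run of 49 bases that occurred in 3 RefSeq windows, those of Snrpn and Snhg14 alone, and was not in the downstream window.
Run shared by the upstream starts: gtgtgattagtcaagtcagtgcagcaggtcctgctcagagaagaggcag

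Meg3, Rian and Mirg were measured as host transcripts and the microRNAs inside them were not. In RefSeq the Meg3 interval held 3 mature microRNAs from 2 hairpins, the Rian interval 6 from 3 and the Mirg interval 19 from 10. The 5 shown here include the pair of Mirg microRNAs with a common seed, bases 2 to 8, which is in capitals.
mmu-miR-341-3p, in Rian, chr12:109611556-109611576 (+ strand): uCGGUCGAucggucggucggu
mmu-miR-370-3p, in Rian, chr12:109618305-109618326 (+ strand): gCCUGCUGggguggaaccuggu
mmu-miR-453, in Mirg, chr12:109735669-109735692 (+ strand): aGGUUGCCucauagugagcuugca
mmu-miR-496a-5p, in Mirg, chr12:109739132-109739152 (+ strand): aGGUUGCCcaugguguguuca
mmu-miR-410-3p, in Mirg, chr12:109743764-109743784 (+ strand): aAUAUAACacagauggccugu
miR-453 and miR-496a-5p shared the seed GGUUGCC, and the other 17 mature microRNAs of Mirg had a seed of their own. The 6 of Rian had 6 seeds.

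Values are the deposited log2 levels, in which a difference of 1 is a doubling. A probe set was tested when its mean over the 66 arrays reached the 40th percentile, log2 5.10, and 27022 probe sets did. Of the 50 members 41 passed, and the 9 below were 2 of Snhg14, 2 of Ndn, 2 of Peg3, 2 of Ube3a and 1 of Snurf/Snrpn. Just inside lay a probe set of Ndn (1438939_x_at, mean 5.36) and 1 of Ube3a (1416681_at, 5.43), and just outside 1 of Ube3a (1416682_at, 4.90) and 1 of Snhg14 (1455087_at, 4.77). In a fit without the filter, the smallest adjusted p of the 9 dim members was 0.112 over the treatment and progenitor comparisons and 0.116 for the strain effect. Array medians were between 5.67 and 5.77. Of the excitatory neuron markers 6 of 6 measured passed the filter, among them Slc17a7 at a mean of 10.44 and Camk2a at 11.87. So did 5 of 5 measured striatal markers and 5 of 6 hypothalamic and septal markers. Passing the filter therefore cannot check the cortical label. Lists of markers for the other cell types and for neighbouring regions are given where they moved.

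Most of the member genes kept to narrow ranges across strains, and Snhg14 did not. For the brightest Snurf/Snrpn probe set (1415896_x_at), the 27 BXD strains ran from 12.80 to 13.12 after saline (median 12.97) and from 12.83 to 13.14 after ethanol (median 13). For Meg3 (1439380_x_at) the saline range was 11.37 to 11.91 (median 11.71). For Ndn (1435383_x_at) it was 11.27 to 11.63 (median 11.44). The strains thus lay close together in each of these 3 probe sets. The BXD saline levels of Peg3 (1433924_at) ran from 10.37 to 10.87, those of Impact (1415911_at) from 10.12 to 10.67, and those of Ube3a (1416680_at) from 9.98 to 10.39. Snrpn alone (1432096_at) ran from 7.82 to 8.32 and Mirg (1457030_at) from 7.03 to 7.72. Nnat (1423506_a_at) and Rian (1452899_at) were wider, from 8.98 to 10.65 and from 8.36 to 10.06. Snhg14 (1436964_at) spanned 4.04 to 10.28.

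**Figure D1:**
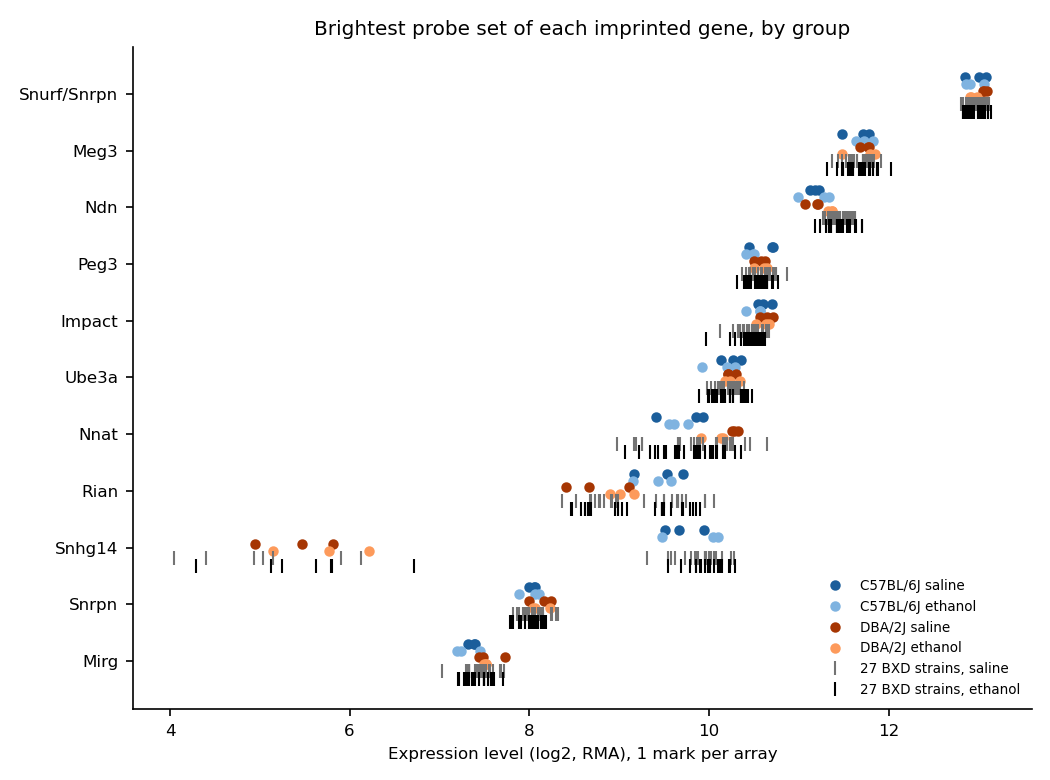
Log2 expression level (x axis, 1 mark per array) of the brightest probe set of each gene (rows) in the C57BL/6J and DBA/2J arrays (points, 3 per group) and in the 27 BXD strains after saline (grey ticks) and ethanol (black ticks). Snhg14 is split into high and low arrays, while the other rows are single bands; levels of different rows come from different probes and are not comparable with each other.

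The first comparison asked how the members differ between the inbred progenitors, DBA/2J minus C57BL/6J, and the members of the Snrpn-Ube3a cluster split sharply. Snhg14 (1436964_at) was high in every C57BL/6J array and low in every DBA/2J array. Its C57BL/6J levels were 9.94, 9.51 and 9.67 after saline and 10.10, 9.48 and 10.04 after ethanol. Those of DBA/2J were 5.47, 5.81 and 4.95 after saline and 5.77, 5.15 and 6.21 after ethanol. The strains did not overlap in either treatment. The difference averaged over treatments was -4.23 on the log2 scale (SE 0.18, limma adjusted p = 1.48e-10), from a mean of 9.79 to 5.56. This rests on 1 probe set. The other 2 of Snhg14 were below the filter. In the limma fit without it, 1455087_at differed by -0.02 (adjusted p = 0.931) and 1445296_at by 0.15 (adjusted p = 0.333).

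A Snurf/Snrpn probe set, 1441905_x_at, had the same split. Its C57BL/6J levels were 9.35, 9.18 and 9.39 after saline and 9.43, 9.26 and 9.48 after ethanol, against 3.67, 4.09 and 4.20 and then 3.76, 3.84 and 3.59 in DBA/2J. The fitted averaged difference was -5.49 (SE 0.09, adjusted p = 3.72e-15). The DBA/2J mean, 3.86, lay below log2 5.10 and was not shown to be above background, and Snhg14 in DBA/2J, at single arrays down to 4.95, was close to that level. Both fitted differences therefore give a direction in the deposited values and not a measured fold change in RNA.

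The other 4 tested Snurf/Snrpn probe sets did not share this pattern. The brightest, 1415896_x_at, read 13.01, 13.08 and 12.85 in C57BL/6J saline arrays and 13.09, 13.06 and 13.05 in DBA/2J saline arrays, and the strains overlapped. None of the 4 passed in any of the strain comparisons, and the probe set of Snrpn alone (1432096_at) differed by 0.10 (95% interval -0.04 to 0.24, adjusted p = 0.381). So probe sets that carry the same annotation disagreed within the gene. Probe sequences of the members, Snhg14 included, were not used here, and whether they match the DBA/2J and C57BL/6J genomes equally well was not tested. The smallest adjusted p of the 4 tested Ube3a probe sets was 0.22, with differences from -0.09 to 0.21 and intervals reaching from -0.41 to 0.54. The 6 of Ndn lay between -0.01 and 0.18 (smallest adjusted p 0.171), with intervals from -0.20 to 0.36. Changes inside these intervals could have been missed.

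**Figure D2:**
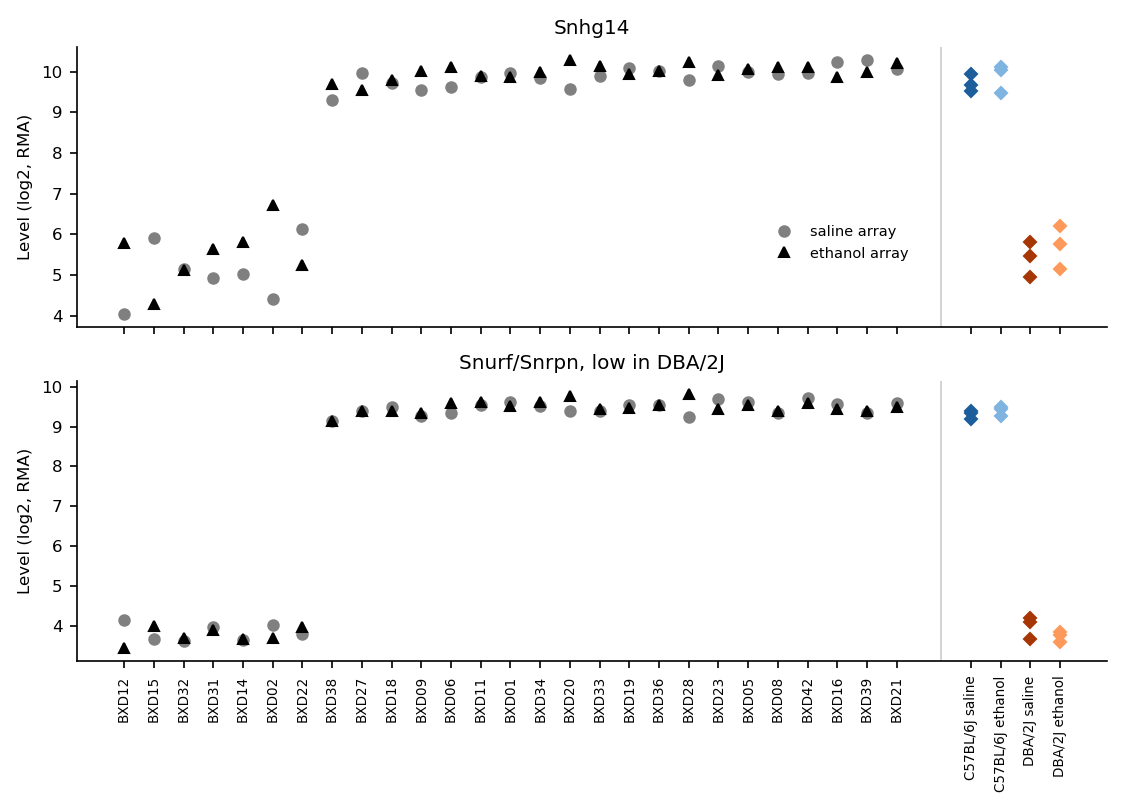
Log2 level (y axis) of Snhg14 (top) and of the Snurf/Snrpn probe set that was low in DBA/2J (bottom) in the saline (circle) and ethanol (triangle) array of each BXD strain, ordered by the mean Snhg14 level, with the progenitor arrays on the right (diamonds). The 7 strains on the left are low in both panels and the other 20 are high in both, near the levels of DBA/2J and C57BL/6J.

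In the Meg3-Rian-Mirg cluster the strain differences were smaller and ran in opposite directions within Meg3. Rian 1427580_a_at was lower in DBA/2J without overlap: 9.29, 9.40 and 8.89 (saline) and 9.04, 8.99 and 9.23 (ethanol) in C57BL/6J against 8.29, 8.40 and 8.34 and then 8.29, 8.51 and 8.37 in DBA/2J. The averaged difference was -0.77 (SE 0.08, adjusted p = 9.82e-06), 1.71-fold. The brightest Rian probe set, 1452899_at, was lower by -0.55 (SE 0.12, adjusted p = 0.00533). Its saline arrays did not overlap (9.71, 9.53 and 9.16 against 8.41, 8.66 and 9.11), but its ethanol arrays did (9.43, 9.15 and 9.58 against 8.90, 9.17 and 9.01). The difference was called after saline (-0.74, adjusted p = 0.012; 0.0694 without saline C57BL/6J replicate 1 and 0.0662 without saline DBA/2J replicate 1) and not after ethanol (-0.36, adjusted p = 0.281), and the test of the difference between them, the interaction, did not pass for any member. The remaining Rian probe sets had differences of 0.24 (1440001_at, adjusted p = 0.0982) and 0.23 (1428055_at), neither past the threshold.

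Meg3 had 11 tested probe sets, and 2 of them passed, with opposite signs. Meg3 1436713_s_at was lower in DBA/2J, with 10.40, 10.13 and 10.73 after saline and 10.72, 10.97 and 10.44 after ethanol in C57BL/6J, against 9.69, 10.07 and 9.75 and then 9.94, 9.84 and 9.58. The averaged difference was -0.75 (SE 0.11, adjusted p = 0.000268), and no array of DBA/2J reached the lowest of C57BL/6J. Meg3 1428764_at was higher in DBA/2J by 0.67 (SE 0.10, adjusted p = 0.000247), with 11.15, 11.05 and 11.05 after saline and 10.80, 10.86 and 11 after ethanol against 10.25, 10.83 and 10.25 and then 10.41, 10.15 and 9.96. Within each treatment its strains did not overlap. Both were called within each treatment, at -0.58 and 0.64 after saline (adjusted p = 0.0353 and 0.0105) and -0.92 and 0.71 after ethanol (0.00185 and 0.00568). The saline call of Meg3 1436713_s_at was lost without saline C57BL/6J replicate 1 or 3 or saline DBA/2J replicate 1 or 3, and that of Meg3 1428764_at without saline C57BL/6J replicate 1 or 3. The other 9 Meg3 probe sets were between 0.03 and 0.26 and did not pass. The host Mirg (1457030_at) differed by 0.20 (SE 0.07, adjusted p = 0.0642) and also did not pass.

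Among the 3 genes outside these clusters Nnat was higher in DBA/2J. Its arrays read 9.41, 9.93 and 9.85 after saline and 9.61, 9.77 and 9.56 after ethanol in C57BL/6J, against 10.28, 10.32 and 10.26 and then 10.13, 9.91 and 10.16 in DBA/2J. The strains did not overlap within a treatment, although the lowest DBA/2J ethanol array lay below the highest C57BL/6J saline array. The averaged difference was 0.49 (SE 0.09, adjusted p = 0.000947), 1.40-fold. After saline alone it was 0.56 (adjusted p = 0.00828) and after ethanol alone 0.42 (adjusted p = 0.0515). Impact 1446751_s_at was higher in DBA/2J after saline, 7.02, 6.95 and 7.03 against 6.61, 6.73 and 6.84. That difference, 0.28 (SE 0.08, adjusted p = 0.0474), was lost when any of saline C57BL/6J replicates 1 and 2 or saline DBA/2J replicates 1, 2 and 3 was left out, at adjusted p values from 0.0725 to 0.198. After ethanol the same probe set had its DBA/2J arrays below those of C57BL/6J, 6.74, 6.66 and 6.75 against 6.80, 6.84 and 6.77 (-0.09, SE 0.08, adjusted p = 0.639), and averaged over treatments it differed by 0.09 (adjusted p = 0.327); neither passed. The 3 tested Peg3 probe sets differed by 0.03 to 0.24 with a smallest adjusted p of 0.081.

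**Figure D3:**
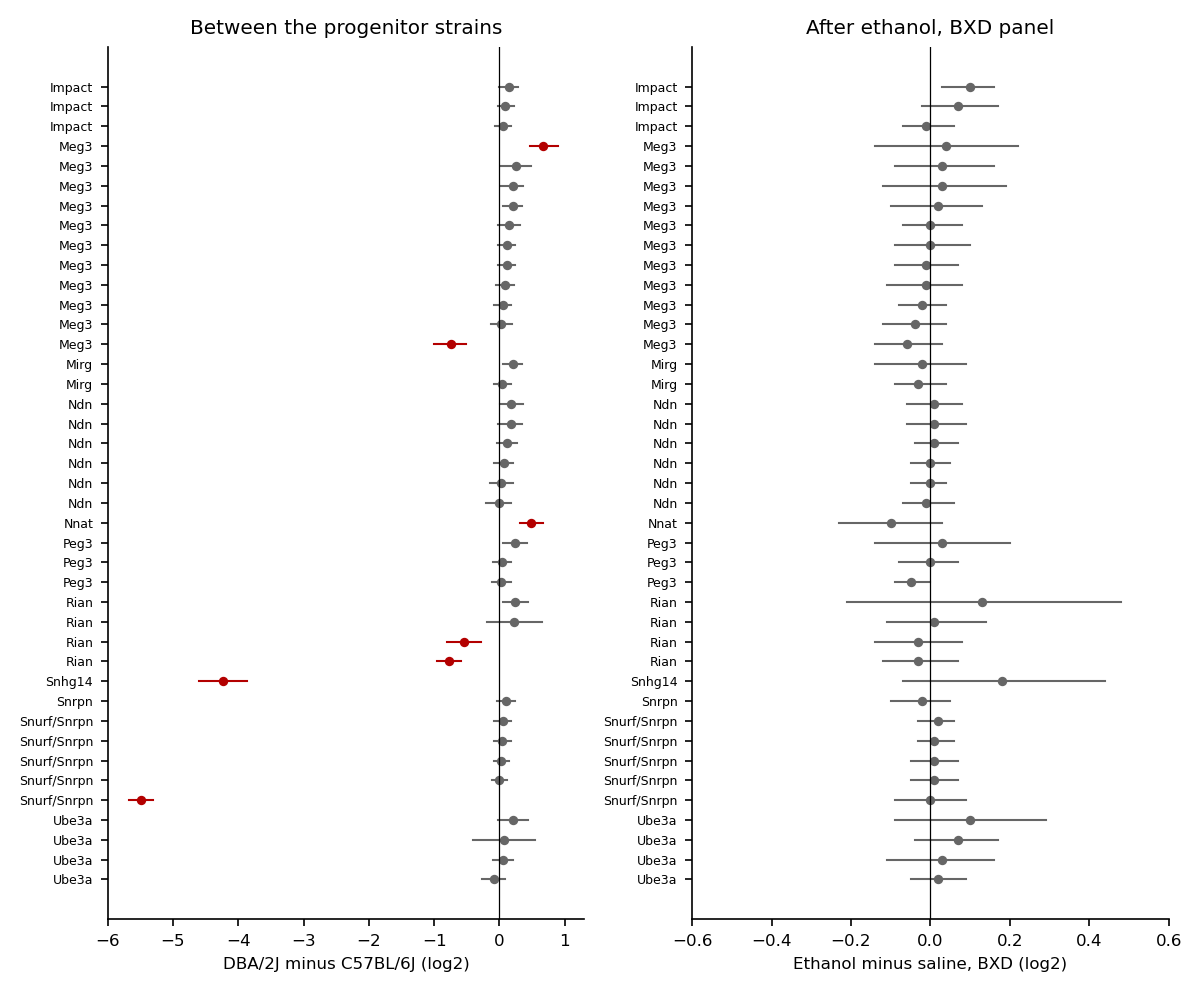
Left, DBA/2J minus C57BL/6J averaged over treatments; right, ethanol minus saline in the BXD panel (on a narrower x axis), each as a log2 difference (point) with its 95% interval (line) for the 41 tested probe sets, labelled by gene. Red marks an adjusted p below 0.05: 7 probe sets on the left, 0 on the right.

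Counted over members, 8 of 41 (19.5%) differed between the progenitors given saline, beside 9.07% of all 27022 probe sets. DBA/2J had the higher level for 3 of them (3.51% of all probe sets) and the lower for 5 (5.56%). After ethanol 5 of 41 (12.2%) differed, beside 6.72%, with 1 higher (3.54% of all) and 4 lower (3.18%). Averaged over treatments 7 of 41 (17.1%) differed, beside 14.2%, with 2 higher (6.95% of all) and 5 lower (7.28%), a share near that of all probe sets; the median member was at 0.07 and the median of all probe sets at 0.03. Several called members are probe sets of the same gene, so these are not independent. The saline count was 4 without saline C57BL/6J replicate 1 and 5 without saline DBA/2J replicate 1, and the averaged count was 11 without ethanol C57BL/6J replicate 2. Each of the 7 averaged calls held when any 1 of the 12 arrays was left out. Progenitors differed in myelin markers as well: 6 of 6 measured oligodendrocyte markers were lower in DBA/2J averaged over treatments (median -0.55), with a list mean of 9.21 to 9.30 in C57BL/6J and 8.35 to 8.72 in DBA/2J saline arrays (8.95 to 9.24 and 8.57 to 8.69 after ethanol). Other lists went both ways or hardly moved. Of 7 microglia markers 1 was higher (P2ry12, 0.23) and 2 were lower (C1qb, -0.94, and Tyrobp, -0.38), with a list median of -0.09. Of 6 excitatory markers 1 was lower (Slc17a7, -0.33; median -0.01), of 5 hypothalamic and septal markers 1 (Zic1, -0.69; median 0.02), of 7 astrocyte markers 1 (Aqp4, -0.21; median -0.02), and of 7 meningeal and fibroblast markers 3 (median 0.00). Among inhibitory, vascular and striatal markers no limma call was made. The part of these cell types in the members' differences was not tested.

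Other imprinted genes, a list of 47 of which 40 were measured and 29 tested at their brightest probe set, included 2 that were higher and 4 that were lower in DBA/2J averaged over treatments. Plagl1, a zinc finger regulator of growth, was lower by -0.84 (SE 0.06, adjusted p = 6.96e-08). Pon2, a lactonase, was lower by -0.91 (SE 0.15, adjusted p = 0.000645). Atp10a (-0.36), a lipid flippase gene of the Snrpn-Ube3a region, and Ddc (-0.33), an enzyme of monoamine synthesis, were lower too, while H13 (0.32) and the adaptor Grb10 (0.20) were higher. Of 10 tested neighbours of the Snrpn-Ube3a cluster 1 passed, the nicotinic receptor subunit Chrna7, higher in DBA/2J by 0.32 (SE 0.08). Of 8 tested neighbours of the Meg3-Rian-Mirg cluster 1 passed, Wdr25, higher by 0.29 (SE 0.06). The median over these 3 lists was 0.01, 0.02 and 0.03, beside 0.03 for all probe sets.

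Whether a member's level followed the strain across the BXD panel was tested over 27 strains, with the saline and ethanol arrays as the 2 values of each. The intraclass correlation, near 1 when both arrays of a strain read alike relative to other strains, describes it. Of 41 members 12 (29.3%) passed the moderated F test, beside 17.5% of all probe sets, and the median intraclass correlation was 0.155 for members and 0.165 for all. The called members were spread over 8 units: 1 of 1 tested for Snhg14, 1 of 5 for Snurf/Snrpn, 2 of 4 for Rian, 2 of 11 for Meg3, 1 of 1 for Nnat, 2 of 6 for Ndn, 2 of 3 for Peg3 and 1 of 4 for Ube3a. The probe set of Snrpn alone, both of Mirg and all 3 of Impact did not pass. Markers of other cells followed the strain too, with 6 of 6 oligodendrocyte, 5 of 7 inhibitory neuron and 4 of 7 microglia markers past the test, and their part in these results was not tested.

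**Figure D4:**
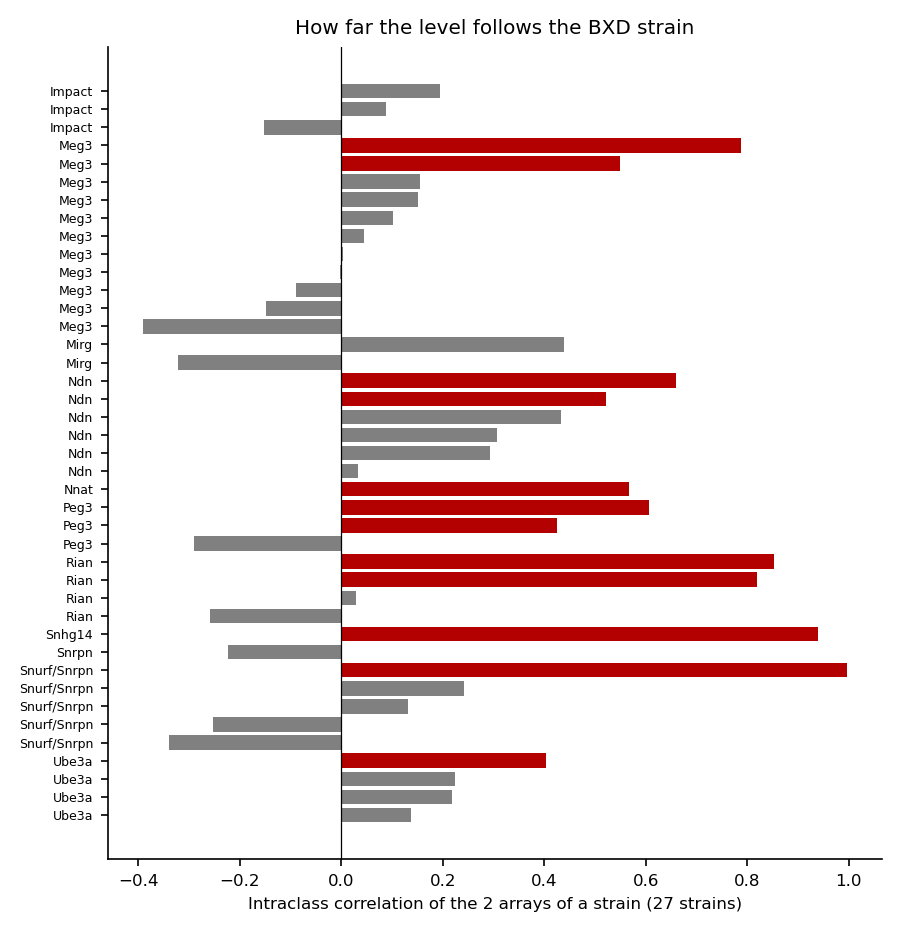
Intraclass correlation (x axis) of the saline and ethanol arrays of a strain over 27 BXD strains for each of the 41 tested probe sets, labelled by gene; red bars passed the moderated F test for strain. The longest bars belong to Snurf/Snrpn (0.996), Snhg14 (0.94), Rian (0.852 and 0.82) and Meg3 (0.788), and bars below 0 mean that the 2 arrays of a strain were less alike than arrays of different strains.

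Snhg14 showed the panel's split in full. Its F was 39.8 (adjusted p = 1.4e-15), and the strain means left an empty stretch between 5.69 and 9.50. Below it lay 7 strains, BXD02, BXD12, BXD14, BXD15, BXD22, BXD31 and BXD32, and above it 20. Both arrays of each of the 27 strains fell on the same side. The Snurf/Snrpn probe set 1441905_x_at (F 487, adjusted p = 4.23e-31) left a stretch between 3.94 and 9.13, and its low strains were those 7 again, the same side in 27 of 27 strains. At the low side Snhg14 arrays scattered: BXD02 read 4.40 after saline and 6.72 after ethanol, BXD12 4.04 and 5.79, and BXD15 5.90 and 4.29. The change thus had either sign among these strains, and the levels lay around the filter. The Snurf/Snrpn values of the same arrays were 4.03 and 3.70, 4.16 and 3.44, and 3.67 and 3.99. In all 7 low strains the mean of this Snurf/Snrpn probe set, at most 3.94, lay below the filter and was not shown to be above background. The probe set was tested because its mean over all arrays, 7.75, passed. Its F therefore separates strains that read high from strains that read low, and does not measure a fold change in RNA.

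Likeness over the 27 strain means is given as a description, since genes share the arrays. It was ranked over the brightest probe set of each other gene, so probe sets with joint symbols (such as Snurf/Snrpn 1441905_x_at, at r 0.997 with Snhg14) and dimmer probe sets of a gene were not candidates. Under that rule Snhg14 was closest to Gm31445 (r 0.954), Tarsl2 (0.905), A230006K03Rik (0.898), B230209E15Rik (0.886) and Apba2 (0.824). The last 4 lie on the chromosome of Snhg14 in RefSeq. Tarsl2, a threonyl-tRNA synthetase relative, was lower in DBA/2J by -0.41 (adjusted p = 0.00174), and A230006K03Rik by -0.45 (adjusted p = 0.000853). Gm31445 was lower by -0.63 (adjusted p = 2.58e-05). Apba2, a synaptic adaptor, differed by -0.15 (adjusted p = 0.166) and did not pass. Ndn, from the same cluster, had Snhg14 as the third of its closest genes, at r 0.667, after Ralyl (0.706) and Yaf2 (0.676). Each r with Snhg14 given here pools the strains on both sides of its gap. Within the 20 strains above the gap Ndn and Snhg14 correlated at r 0.208, and within the 7 below it at -0.158.

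At 2 of its 4 tested probe sets, Rian split the panel in another way. Rian 1427580_a_at (F 14.6, adjusted p = 1.17e-09) left a stretch between 8.69 and 9.14, with 14 strains below and 13 above, and both arrays lay on the same side in 26 of 27 strains. Meg3 1436713_s_at (F 9.84, adjusted p = 1.5e-07) put the same 14 and 13 strains on each side, in 27 of 27 strains, between 10.05 and 10.31. Against Snhg14 the sides matched in 14 of 27 strains for both. Over strain means these 2 Rian probe sets, 1452899_at and 1427580_a_at, correlated at 0.977, and Meg3 1436713_s_at with them at 0.869 and 0.88. The other 2, 1428055_at and 1440001_at, did not pass the strain test (intraclass correlations -0.259 and 0.0296). They correlated with the first 2 at 0.44 to 0.541 and with Meg3 1436713_s_at at 0.339 and 0.334. Meg3 1428764_at, the probe set that was higher in DBA/2J, did not pass the strain test (moderated F 1.46, adjusted p = 0.335, intraclass correlation 0.102). It correlated with Rian 1452899_at at -0.753, with Rian 1427580_a_at at -0.715 and with Meg3 1436713_s_at at -0.777. These r values describe probe sets picked after their values were seen. Each r in this paragraph pools the strains on both sides of the split, and r within a side was not calculated. The brightest Meg3 probe set (1439380_x_at) correlated with Rian at 0.325 (adjusted p = 0.404 over the 45 pairs tested below), and Mirg with Rian at 0.164 (adjusted p = 0.708). By the same ranking of brightest probe sets, in which Meg3 1436713_s_at was no candidate, the genes most like Rian 1452899_at were 2810029C07Rik (r 0.886), Tmem121 (0.817) and Tnfaip2 (0.811), all on its chromosome in RefSeq and all lower in DBA/2J, by -0.52, -0.34 and -0.56.

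**Figure D5:**
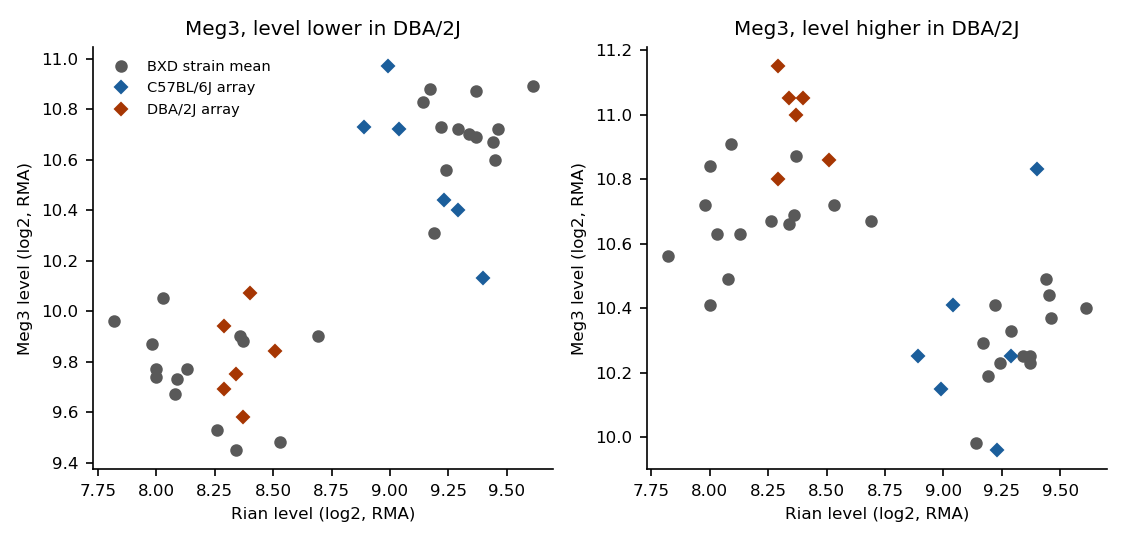
Log2 level of Rian 1427580_a_at (x axis) against Meg3 1436713_s_at (left) and Meg3 1428764_at (right), with 1 grey point per BXD strain mean and 1 diamond per progenitor array. On the left, 14 strains lie low with DBA/2J and 13 high with C57BL/6J. On the right the relation runs the other way (r -0.715 over 27 strains, both sides pooled), but Meg3 1428764_at did not pass the moderated F test for strain (adjusted p = 0.335).

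Nnat followed the strain with an F of 4.24 (adjusted p = 0.00104) and an intraclass correlation of 0.567. Its strain means ran from 9.11 in BXD05 to 10.37 in BXD32 with a median of 9.89 and no wide gap. The genes most like it were Lbp (r 0.84), which encodes lipopolysaccharide binding protein, and Gm14204 (0.79), both on its chromosome, and Msh5 (0.77), a meiotic repair gene on another. Lbp was higher in DBA/2J by 0.54 (adjusted p = 0.000998).

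The other called members varied little between strains. Ndn 1415923_at ran from 10.87 to 11.25 (F 3.24, adjusted p = 0.00855) and Ndn 1435383_x_at from 11.26 to 11.63 (F 2.52, adjusted p = 0.0407). Peg3 1433924_at ran from 10.36 to 10.74 (F 2.9, adjusted p = 0.0181) and Peg3 1417356_at from 8.50 to 9.05 (F 2.5, adjusted p = 0.0425). Ube3a 1416681_at, from 5.05 to 5.93 near the filter, had F 2.68 (adjusted p = 0.0294), while the brightest Ube3a probe set did not pass. The calls of Peg3 1417356_at and Ube3a 1416681_at were lost with the array SD as a covariate, at adjusted p values of 0.225 and 0.0745, and the strain means of Peg3 1417356_at correlated with that SD at 0.596. Without the filter, Ndn 1435383_x_at (0.0612) and Peg3 1417356_at (0.0526) were lost, and Peg3 1417356_at also after repeated quantile normalization (0.0961). Single strains also decided these calls. That of Peg3 1417356_at was lost without any of BXD05, BXD06, BXD09, BXD11, BXD14, BXD15, BXD16, BXD18, BXD23, BXD28, BXD32, BXD34 and BXD38 (up to 0.105), and that of Ndn 1435383_x_at without any of BXD02, BXD06, BXD08, BXD12, BXD18, BXD20, BXD21, BXD22, BXD23, BXD31 and BXD33 (up to 0.079). Peg3 1433924_at was lost without BXD38 (0.0505), and Ube3a 1416681_at without BXD20 (0.0524) or BXD22 (0.0914). Meg3 1452905_at, from 11.12 in BXD15 to 11.75 (F 3.12, adjusted p = 0.0112), was lost without BXD15 (0.0659).

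Some Ndn probe sets read higher in the panel than in its progenitors. The lowest of the 27 strain means of Ndn 1435382_at was 10.91, while the C57BL/6J and DBA/2J means were 10.77 and 10.76. The lowest strain mean of Ndn 1435383_x_at, 11.26, equalled the DBA/2J mean of 11.26 and exceeded that of C57BL/6J, 11.19. Neither held for Ndn 1437853_x_at, whose strain means of 10.88 to 11.27 enclosed both progenitor means (10.89 and 11.06). Progenitor and panel levels were not tested against each other.

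The remaining genes had their closest likeness over strain means off their own chromosome, again as a description. For Meg3 these were Man2a1 (r 0.767), Phc3 (0.759) and the dynamin Dnm3 (0.743), and for Peg3 Arfgef1 (0.773), Ints6l (0.755) and the growth kinase gene Mtor (0.745). For Ube3a they were Rc3h2 (0.817), Ppp1r12a (0.816) and Ankrd10 (0.807), for Impact Zfp58 (0.678), Cracd (0.616) and Mmp16 (0.607). Snrpn was closest to Carhsp1 (0.711), Gm6607 (0.705) and Akr1c18 (0.678), Mirg to Zfp710 (0.695), Fam193b (0.676) and Nek6 (0.666), and the brightest Snurf/Snrpn probe set to Ngp (0.661), Wars (0.652) and A4gnt (0.634). Among the 29 other imprinted genes tested 8 followed the strain, led by Plagl1 (intraclass correlation 0.847), Inpp5f (0.721) and Ddc (0.7), and including Pon2 (0.676), Mest (0.617), Rasgrf1 (0.605), the growth factor Igf2 (0.505) and the cell-cycle inhibitor Cdkn1c (0.489). Of the neighbours of the Snrpn-Ube3a cluster 3 of 10 did, Nipa1 (0.642) and the GABA-A receptor subunits Gabra5 (0.474) and Gabrg3 (0.393), and of those of the Meg3-Rian-Mirg cluster 1 of 8, Wdr25 (0.556).

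The study's main question was what ethanol does, and no member changed past the threshold in any ethanol comparison. In the BXD panel 0 of 41 passed in limma, beside 0.0074% of all probe sets, and 1 (2.44%, beside 4.17% of all probe sets) had an unadjusted p below 0.05. That was Impact 1446750_at, which ran from 6.58 to 7.18 after saline (median 6.91) and from 6.77 to 7.35 after ethanol (median 6.97); the paired difference was 0.10 (SE 0.03, higher in 20 of 27 strains, unadjusted p = 0.00859, adjusted p = 1). The median member difference was 0.01, with a range of -0.10 to 0.18, and the median of all probe sets was -0.01. Snhg14 differed by 0.18 (95% interval -0.07 to 0.44) and was higher in 17 of the 27 strains; this was the largest difference among the 41 members, and its interval includes 0. Its strain differences ran from -1.61 in BXD15 to 2.32 in BXD02, strains at the low side of the gap.

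For most of the brightest probe sets the intervals were narrow. The BXD difference of Snurf/Snrpn was 0.01 (95% interval -0.05 to 0.07), of Ndn 0.00 (-0.05 to 0.05), of Meg3 -0.01 (-0.09 to 0.07) and of Impact -0.01 (-0.07 to 0.06). Ube3a differed by 0.02 (-0.05 to 0.09), Snrpn by -0.02 (-0.10 to 0.05), Mirg by -0.03 (-0.09 to 0.04) and Rian by -0.03 (-0.14 to 0.08). Peg3 was at -0.05 (-0.09 to 0.00), higher in 9 of 27 strains, and Nnat at -0.10 (-0.23 to 0.03). These 10 intervals reach from -0.23 to 0.09, and a change within its own interval cannot be told from 0 in these data.

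In the progenitors 0 of 41 members passed after ethanol in C57BL/6J (0.0074% of all probe sets did), with 2 at an unadjusted p below 0.05 (4.88%, beside 4.82% of all). Peg3 1417355_at read 9.75, 9.98 and 9.53 after saline and 9.54, 9.17 and 9.41 after ethanol. The groups overlapped at 1 array, and it differed by -0.38 (SE 0.12, adjusted p = 0.948). In DBA/2J 0 of 41 passed (0% of all probe sets), again with 2 at an unadjusted p below 0.05 (4.88%, beside 11.9% of all). Impact 1446751_s_at was lower after ethanol without overlap, 6.74, 6.66 and 6.75 against 7.02, 6.95 and 7.03 (-0.29, SE 0.08, adjusted p = 0.266). Ndn 1435382_at was higher without overlap, 10.91, 10.94 and 10.97 against 10.60, 10.72 and 10.42 (0.36, SE 0.12, adjusted p = 0.308). Neither passed. The probe sets of these genes did not share a direction in DBA/2J. Of the 6 tested for Ndn 3 were higher, and 1437853_x_at (-0.14), 1455792_x_at (-0.11) and 1438939_x_at (-0.22, without overlap, near the filter) were lower. Impact 1446750_at differed by 0.14 and Impact 1415911_at by -0.04. In the mean of both progenitors 0 members passed (0.0185% of all) and 4 had an unadjusted p below 0.05 (9.76%, beside 9.28% of all). In the difference of the progenitors' responses 0 passed (0% of all) and 1 had an unadjusted p below 0.05 (2.44%, beside 7.37% of all). That member was Impact 1446751_s_at at -0.36 (SE 0.12, adjusted p = 0.672). The progenitor intervals were wider, up to 0.67 on either side of a member's difference within a strain. The 29 other imprinted genes had a median BXD difference of 0.01.

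The last comparison asked whether members vary together over the 27 strain means, with the brightest probe set of each gene and Snhg14 left out because its strains fall in separate clusters. Of 45 pairs 1 passed a permutation test with adjustment over the pairs. Meg3 and Peg3 correlated at r 0.686 (Spearman rho 0.668, permutation p = 0.00015, adjusted p = 0.00675), and r was 0.669 without the 2 strains farthest from the median. The level of this Meg3 probe set, 1439380_x_at, did not follow the strain (moderated F 1.04, adjusted p = 0.637, intraclass correlation -0.00349). Its r with Peg3 therefore does not show that strain levels vary together. In the saline arrays alone r was 0.433 (adjusted p = 0.201) and in the ethanol arrays alone 0.645 (adjusted p = 0.013), and given the array SD it was 0.662. Snurf/Snrpn and Ube3a came next at r -0.509 (adjusted p = 0.151), and Impact and Ube3a at 0.47 (adjusted p = 0.201); neither passed. Members read on the same arrays share whatever differs between arrays, and the strain means of Ube3a correlated with the array SD at 0.679. Among the 20 strains above the Snhg14 gap, Snhg14 correlated with Peg3 at r 0.634 (rho 0.617, permutation p = 0.00222, adjusted p = 0.0444 over 20 tests, r 0.594 without the 2 strains farthest from the median). The F of Snhg14 spans the gap, and whether its level followed the strain within these 20 was not tested. This r therefore does not show that strain levels vary together there either. Within the 7 strains below the gap r was -0.0516, and the difference between the sides was not tested.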

How the data were processed

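Expression was measured on 66 Affymetrix arrays of mouse medial prefrontal cortex. The authors deposited log2 values; the submitters' processing notes name affy and RMA without a version, and the batch of each array was not used. RMA quantile-normalizes arrays to a shared distribution, so a change common to all genes is not visible.

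From these values, limma 3.58.1 in R 4.3.3 fitted ethanol effects in the BXD panel with strain as a block, progenitor contrasts in 1 fit of 12 arrays, and a moderated F test for strain, on 27022 probe sets with a mean at or above the 40th percentile, adjusted by Benjamini-Hochberg over all of them. Correlations used 100000 permutations of strain means. The averaged progenitor fit and the BXD ethanol fit were tested on data simulated with independent noise and 200 changed probe sets. The progenitor fit recovered 0% of log2 differences of 0.25, 81.5% of 0.5 and 98.5% of 1. For the BXD ethanol fit these were 93.5%, 99.5% and 100%. Up to 6.32% of the calls were false. The strain test was not simulated. Every member probe set was counted; full values are given for the brightest probe set of each gene and for called ones, list genes are named when called, up to 6 by smallest p, and likeness genes are the 3 highest r (5 for Snhg14). Members, lists and tests were chosen with earlier results of these data known. Alternatives were other filters, scalings, priors, weights, blocks and left-out arrays or strains. Progenitor replicate numbers did not pair the arrays: 2 of 18 same-numbered pairs of groups had correlated deviations above 0.1 (range -0.353 to 0.23). The number of arrays limits the precision.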

Additional observations from a re-analysis of the deposited data

How the results depend on the processing

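The ethanol counts stayed at 0 members under all alternatives run, while the number of members tested changed with the filter and with the brightest probe set per gene. With only the brightest probe set of each of 10 genes, 3 members differed between progenitors after saline, 2 after ethanol and 4 averaged, and 6 followed the strain; fewer probe sets are tested by construction. With all 66 arrays in 1 fit the counts were 0 after saline, 0 after ethanol and 3 averaged, where the spread between BXD strains enters the error by construction. With the array SD as a covariate the saline count was 5, and the cause was not tested. Leaving out 1 array gave 4 to 7 after saline, 5 to 6 after ethanol and 7 to 11 averaged, and leaving out 1 strain gave 10 to 14 for the strain effect. With the replicate block the counts were 6 after saline, 5 after ethanol and 7 averaged, with 0 in the ethanol effects; without the strain block the BXD count was 0. The block ended the saline calls of Impact 1446751_s_at (adjusted p = 0.0787) and Meg3 1436713_s_at (0.0599). Of the correlations, 0 pairs passed in saline arrays alone, 2 in ethanol arrays alone and 2 by Spearman. Over all probe sets, the saline calls were 948 higher and 1503 lower, against 672 and 1794 after median centring; after ethanol 957 and 859, against 880 and 986 after repeated quantile normalization. Of 349 signed differences of single called members under alternatives, 311 kept direction and call, 38 kept direction and lost the call, and 0 reversed. The filters, the priors, the replicate block, the brightest probe set and the fit of all 66 arrays leave the fitted differences unchanged. No direction could reverse under those. Of 412 values of the strain effect, which has no sign, 379 kept the call and 33 lost it.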
